A study of Mus musculus with 8 samples.

Results

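Interferon gamma (IFN-gamma) and the parts of its receptor were followed through 4 lines of EL4 cells. The 5 genes were chosen by name, as *Ifng* for the cytokine, *Ifngr1* and *Ifngr2* for the receptor chains, and *Jak1* and *Jak2* for the kinases bound to those chains, and they were 5 of the 54146 genes measured. EL4 is a T lymphoma line of C57BL/6 mice that makes GATA3 of its own. The study asked how the TH1 factor T-bet and the TH2 factor GATA3 act when 1 cell holds both. All lines carried 2 retroviral constructs, so that the control was also transduced. GFP + Plum held both reporters without a factor, T-bet + Plum held FLAG-T-bet, GFP + GATA3 held HA-GATA3, and T-bet + GATA3 held both factors. Poly-adenylated RNA was sequenced after 4 h with phorbol 12-myristate 13-acetate (PMA) at 50 ng/ml and ionomycin at 1 µM, which together mimic activation through the T cell receptor. Each line gave 2 libraries, made from harvests of the same transduced line, so every p-value speaks of harvests and not of separately made lines. The forced levels came from viral promoters in a tumour line and need not match those of primary T cells. No sample was left unstimulated, and IFN-gamma protein and receptor chains on the cell surface were not analysed here.

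IFN-gamma is the signature cytokine of TH1 cells and natural killer cells, and it activates macrophages. It is secreted as a dimer and binds the receptor chain IFNGR1, after which the chain IFNGR2 joins the complex. IFNGR1 carries the kinase JAK1 and IFNGR2 carries JAK2. The kinases pass the signal to the nucleus, where genes with gamma-activated sites are turned on. In mouse T cells the amount of IFNGR2 is known to limit the response, and TH1 cells are known to hold little of it.

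The libraries held 8038565 to 16003519 estimated counts, and the 10 most abundant genes took 14.3% to 17.99% of them. The constructs were checked first. *Tbx21*, the gene of T-bet, stood at 128.7 to 160.1 CPM (counts scaled to a common library total) in the 4 libraries with FLAG-T-bet and at 1.78 to 3.59 CPM in the other 4. *Gata3* was at 39.8 and 53.3 CPM in GFP + Plum and at 25.8 and 34.9 CPM in T-bet + Plum. It was at 283 and 326 CPM in GFP + GATA3, and at 204 and 165 CPM in T-bet + GATA3. With and without HA-GATA3, the line with FLAG-T-bet thus held less of it than the line with GFP. All 7 T cell markers were detected in every library, with a summed level of 676 to 979 CPM without FLAG-T-bet and 899 to 1214 CPM with it. Among them *Cd4* was near 0, with line means from 0.595 CPM in GFP + Plum to 2.99 CPM in T-bet + Plum. In the averaged T-bet effect 3 of the 7 rose, *Lck*, *Cd5* and *Cd3d*, where 8.55% of all genes were called higher. The other 4 did not pass, with *Thy1* at -0.31 (SE 0.28), *Cd3g* at 0.06, *Cd3e* at 0.16 and *Cd4* at 1.34 (SE 0.44). The part of the T cell markers in the other results was not tested. The 3 NK cell markers summed to at most 0.433 CPM in any library, the 3 B cell markers to at most 0.507 CPM and the 4 macrophage markers to at most 0.861 CPM, so the cells that are the usual other sources or targets of IFN-gamma were at or near 0.

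The windows before the transcription starts of the 3 genes that moved are shown because *Ifng* and *Jak2* rose and *Ifngr2* fell with the same factor. They are the 250 bases upstream of the RefSeq starts on GRCm38, read 5′ to 3′ along the gene. Capitals mark matches on either strand to 4 motifs, which were the T-box core, a GATA motif, the gamma-activated site and the TATA box. The T-box core was written as GGTGTG. The GATA motif was written as GATAA. The gamma-activated site was written as TTCNNNGAA. The TATA box was written as TATAAA. The motifs do not overlap each other in these windows.
Ifng, chr10:118440796-118441045, plus strand: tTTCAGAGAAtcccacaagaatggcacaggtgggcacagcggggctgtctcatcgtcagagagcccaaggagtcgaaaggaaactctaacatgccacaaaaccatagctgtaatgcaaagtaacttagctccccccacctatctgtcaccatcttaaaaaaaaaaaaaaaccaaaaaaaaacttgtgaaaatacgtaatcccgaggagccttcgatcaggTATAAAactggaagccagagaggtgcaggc
Ifngr2, chr16:91546809-91547058, plus strand: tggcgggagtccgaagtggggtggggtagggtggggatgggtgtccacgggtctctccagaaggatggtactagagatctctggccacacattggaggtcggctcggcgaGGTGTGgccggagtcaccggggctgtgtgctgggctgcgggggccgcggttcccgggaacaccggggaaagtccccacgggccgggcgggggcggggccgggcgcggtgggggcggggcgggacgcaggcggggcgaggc
Jak2, chr19:29251553-29251802, plus strand: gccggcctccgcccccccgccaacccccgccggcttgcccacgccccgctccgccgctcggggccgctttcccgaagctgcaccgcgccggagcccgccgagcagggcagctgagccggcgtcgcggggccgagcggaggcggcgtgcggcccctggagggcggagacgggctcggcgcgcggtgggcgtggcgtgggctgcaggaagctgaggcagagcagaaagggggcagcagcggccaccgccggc
The *Ifng* window held 1 TATA box, starting 30 bases before the start, and 1 gamma-activated site at its far end. The *Ifngr2* window held 1 T-box core and none of the others. The *Jak2* window held none of the 4 motifs, nor did those of *Ifngr1* and *Jak1*. Of 32851 mouse promoter windows of the same length, 16.3% held the T-box core, 22.6% the GATA motif, 7.02% the gamma-activated site and 12.4% the TATA box. These matches describe the letters only, and less exact forms of the motifs were not searched. The paper reports FLAG-T-bet at the *Ifng* promoter by ChIP, which was not compared with these matches.

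*Ifng* lies at chr10:118441046-118445892 on the plus strand and is known by the identifier ENSMUSG00000055170.4. Its transcripts drew 3 and 11 counts in the libraries of GFP + Plum, and 6 and 8 counts in those of GFP + GATA3. With FLAG-T-bet the counts were 31901 and 40777 in T-bet + Plum, and 32146 and 45323 in T-bet + GATA3. The groups with and without FLAG-T-bet were therefore far apart, while the 2 control lines, and likewise the 2 FLAG-T-bet lines, lay on the same level. Per transcript length, *Ifng* reached 4939 ± 1385 TPM (transcript counts scaled by length and library total; SD, n = 2) in T-bet + Plum and 4401 ± 275 TPM in T-bet + GATA3. This placed it between rank 13 and rank 22 of all genes in these 4 libraries. Without FLAG-T-bet it ranked 11585 at best, at 0.189 to 1.49 TPM. In these bulk libraries more cells making a transcript and more transcript per cell cannot be told apart.

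In the comparison of T-bet + Plum with GFP + Plum, *Ifng* rose by 12.88 on the log2 scale (SE 0.41, edgeR adjusted p = 5.26e-06). The ratio of scaled counts was 7314, with a 95% counting interval of 4359 to 13379, since GFP + Plum gave only 14 counts over both libraries. In T-bet + GATA3 against GFP + GATA3 it rose by 12.54 (SE 0.41, edgeR adjusted p = 6.24e-06), a ratio of 5974 with an interval of 3560 to 10928. The difference between these effects was -0.34 with a 95% interval from -1.95 to 1.28, which leaves room for differences of that size. T-bet + GATA3 differed from T-bet + Plum by -0.06, with a narrower interval from -0.59 to 0.47. HA-GATA3 alone gave 0.28, with an interval from -1.24 to 1.80 that reflects how few reads the control lines had.

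**Figure D1:**
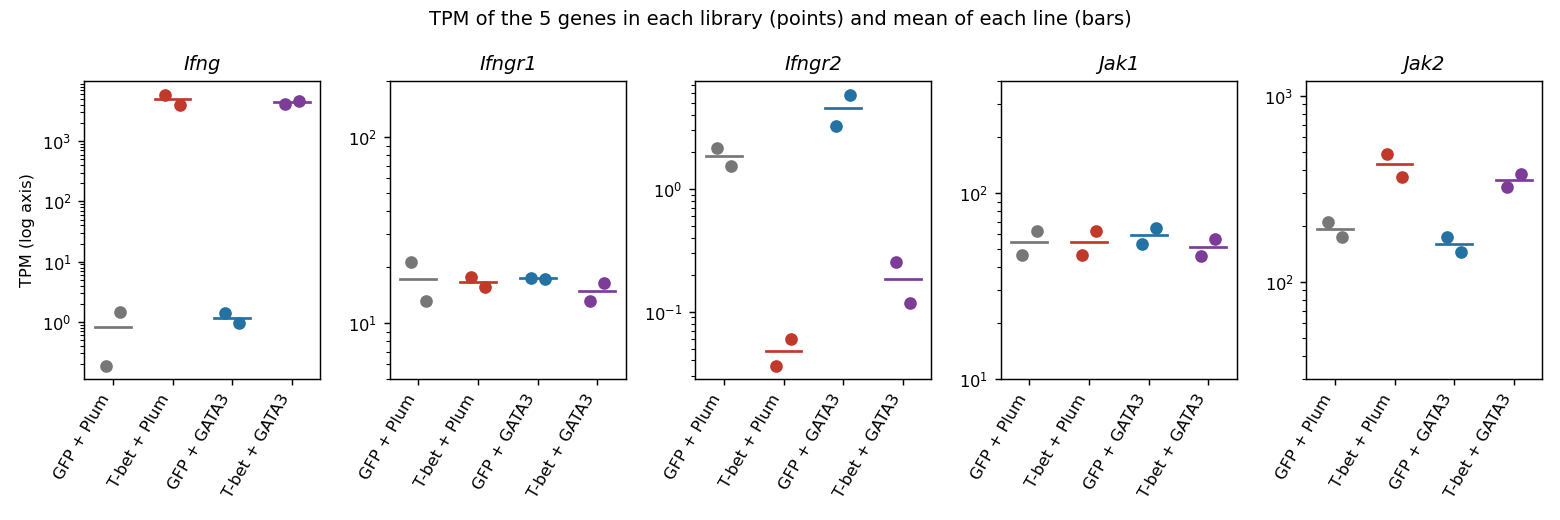
TPM on log axes for each of the 5 genes, with 1 point per library and a bar at the mean of the 2 libraries of each line; the axis range differs between panels. *Ifng* stands at 3960 to 5918 TPM in the 4 libraries with FLAG-T-bet and at or below 1.49 TPM elsewhere, *Ifngr2* is lower and *Jak2* higher in the same 4 libraries, and *Ifngr1* and *Jak1* overlap.

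Gencode lists a pair of *Ifng* transcripts. The mRNA, ENSMUST00000068592.4, has 4 exons and 1208 bases. The other, ENSMUST00000220309.1, has 378 bases, keeps the second intron and ends 6 bases into the third exon. The kept intron, chr10:118442526-118442612, is 87 bases long. It is shown in capitals between 30 bases of exon 2 and the 6 bases of exon 3, because of this pair the shorter transcript alone holds the intron bases. The mRNA alone holds the rest of exon 3 and exon 4.
Ifng intron 2 with flanks, chr10:118442496-118442618, plus strand: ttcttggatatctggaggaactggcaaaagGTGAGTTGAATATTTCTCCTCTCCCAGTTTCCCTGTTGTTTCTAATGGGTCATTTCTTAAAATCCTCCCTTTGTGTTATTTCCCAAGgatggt
The intron begins with GT and ends with AG, and its GC content is 39.1%. In T-bet + Plum the intron-keeping transcript was assigned 7084 and 8082 counts, or 22.2% and 19.8% of the *Ifng* counts. In T-bet + GATA3 it was assigned 5592 and 10561 counts, or 17.4% and 23.3%. The shares of the 2 lines overlap, and the lowest and the highest share both came from T-bet + GATA3. Because this transcript is short, it carried 43.7% to 53.0% of the *Ifng* TPM in these 4 libraries, so the TPM of the gene counts both forms. In the 4 libraries without FLAG-T-bet it had 0 to 5.53 counts, too few for a share to be read.

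A further annotated feature lies within *Ifng* on the same strand. RP23-353P23.2, at chr10:118441419-118444140, is a single unspliced stretch that begins in intron 1 and runs over exons 2 and 3 into intron 3. It had 377 and 495 counts in T-bet + Plum, 382 and 509 in T-bet + GATA3, and 0 in the 4 other libraries. That is at least 728-fold higher with FLAG-T-bet, against a floor of 3 counts over the 4 libraries without it. Its sequence holds *Ifng* introns, and reads of unspliced *Ifng* RNA cannot be told apart from reads of a transcript of its own.

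**Figure D2:**
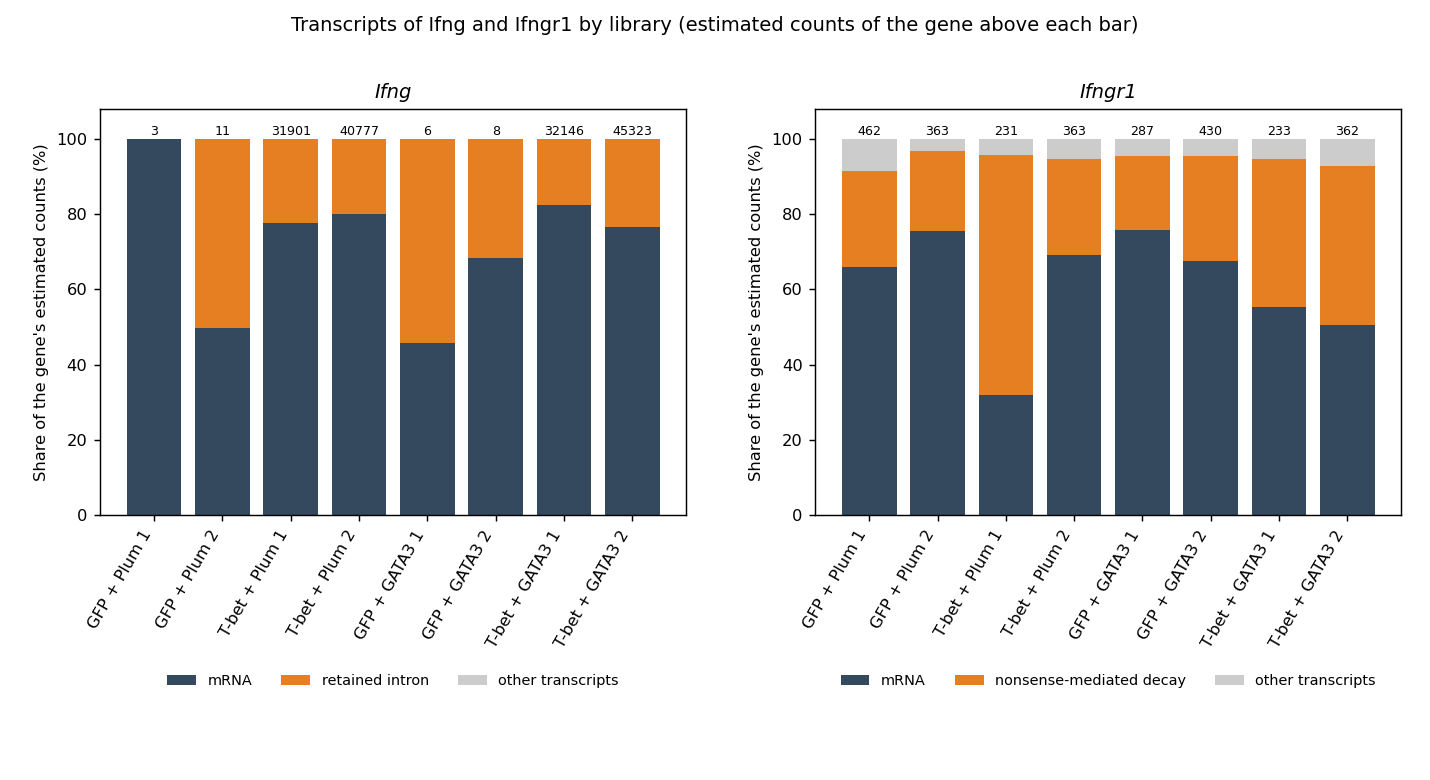
Share of the estimated counts of *Ifng* and *Ifngr1* given to each transcript in the 8 libraries, with the counts of the gene above each bar. The intron-keeping *Ifng* transcript took 17.4% to 23.3% in the 4 libraries with FLAG-T-bet, and the *Ifng* bars of the other 4 rest on 3 to 11 counts.

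*Ifngr1*, the chain that binds the cytokine, lies at chr10:19591949-19610229 on the plus strand (ENSMUSG00000020009.13). Its levels were 21.4 and 13.2 TPM in GFP + Plum, 17.6 and 15.7 TPM in T-bet + Plum, 17.5 and 17.4 TPM in GFP + GATA3, and 13.2 and 16.5 TPM in T-bet + GATA3. The lines overlapped, and the spread within GFP + Plum was as wide as that among all lines. The effect of T-bet averaged over both GATA3 states was -0.05 on the log2 scale with a 95% interval from -0.30 to 0.20, and in none of the 7 comparisons did *Ifngr1* pass the edgeR test. These intervals leave room for changes of modest size.

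The transcripts of *Ifngr1* were less even. The coding transcript ENSMUST00000020188.12 held 66.1% to 75.9% of the counts without FLAG-T-bet. With it, the share was 32.0% and 69.2% in T-bet + Plum and 55.3% and 50.6% in T-bet + GATA3. The transcript annotated for nonsense-mediated decay, ENSMUST00000164591.2, took 19.6% to 28.0% without FLAG-T-bet and 25.6% to 63.9% with it. The ranges overlap through replicate 2 of T-bet + Plum, and the transcripts share most of their exons, so the split is an estimate on 231 to 462 counts per library and was not tested.

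*Ifngr2*, the chain that brings JAK2 to the complex, lies at chr16:91547072-91565623 on the plus strand (ENSMUSG00000022965.8). It had 109 and 69 counts in GFP + Plum, 73 and 221 in GFP + GATA3, 1 and 2 in T-bet + Plum, and 9 and 5 in T-bet + GATA3. Its levels were 0.0363 to 0.252 TPM in the 4 libraries with FLAG-T-bet and 1.55 to 5.88 TPM in the 4 without it. It was thus a weakly expressed gene even in the control, where it ranked between 11495 and 11515 by TPM. The 2 counts in replicate 2 of T-bet + Plum were both given to a non-coding transcript, and its coding transcript was at 0 there.

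*Ifngr2* fell by 5.30 on the log2 scale in T-bet + Plum against GFP + Plum (SE 0.71, edgeR adjusted p = 0.00501). The ratio of scaled counts was 42.1 in favour of GFP + Plum, with a 95% counting interval of 14.2 to 206 on 178 against 3 counts. In T-bet + GATA3 against GFP + GATA3 it fell by 4.11 (SE 0.56, edgeR adjusted p = 0.00512), a ratio of 19.5 with an interval of 11.4 to 36.02. Averaged over both GATA3 states it fell by 4.70 (SE 0.45, edgeR adjusted p = 0.000416), and it fell by 3.19 between T-bet + GATA3 and GFP + Plum (SE 0.56, edgeR adjusted p = 0.0170). Without replicate 2 of T-bet + Plum the adjusted p of the first comparison was 0.0785. The last comparison had an adjusted p of 0.0537 without replicate 1 of GFP + Plum, 0.0822 without replicate 2 of T-bet + GATA3, and 0.0584 when fitted on its own libraries.

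HA-GATA3 went with higher *Ifngr2* values that did not pass the test. The estimate was 0.92 on the log2 scale without FLAG-T-bet (95% interval from -0.07 to 1.92, edgeR adjusted p = 1) and 2.11 with it (interval from -0.02 to 4.24, edgeR adjusted p = 1). The highest value was that of replicate 2 of GFP + GATA3, at 14.0 CPM, while replicate 1 of that line, at 6.99 CPM, was close to replicate 1 of GFP + Plum at 6.75 CPM. The difference between the T-bet effects with and without HA-GATA3 was 1.18, with an interval from -1.18 to 3.54.

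The ratio of the chains compares them within a library and does not depend on library size. *Ifngr1* exceeded *Ifngr2* 9.94 and 8.48 times by TPM in GFP + Plum, and 5.34 and 2.95 times in GFP + GATA3. The ratio was 486 and 262 in T-bet + Plum and 52.4 and 141 in T-bet + GATA3. The log2 ratio was 4.86 higher in the 4 libraries with FLAG-T-bet than in the 4 without (exact two-sided permutation test, p = 0.0286, the smallest this design allows, and 0.0286 after adjustment over 2 ratios). It was 5.28 higher within the Plum lines and 4.44 higher within the GATA3 lines. The high ratios rest on 1 to 9 counts of *Ifngr2*. Since *Ifngr1* was flat, the ratio restates the fall of *Ifngr2* and is no separate support. The 4 libraries of each group are 2 harvests from each of 2 lines.

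*Jak1*, which encodes the kinase of IFNGR1 that also serves many other cytokine receptors, lies at chr4:101152367-101265282 on the minus strand (ENSMUSG00000028530.14). It was at 46.7 and 62.5 TPM in GFP + Plum, 46.5 and 62.8 TPM in T-bet + Plum, 53.5 and 65.1 TPM in GFP + GATA3, and 46.1 and 56.8 TPM in T-bet + GATA3. The lines overlapped, and the difference between replicates exceeded that between lines. The averaged T-bet effect was -0.01 with a 95% interval from -0.38 to 0.36, and its sign turned with transcript length offsets, where it was 0.01. *Jak1* passed the edgeR test in none of the 7 comparisons. At least 99.2% of its counts went to 1 coding transcript in every library.

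*Jak2*, the kinase of IFNGR2, lies at chr19:29251828-29313080 on the plus strand (ENSMUSG00000024789.12). It was the most abundant of the receptor genes, at 210 and 175 TPM in GFP + Plum and 173 and 144 TPM in GFP + GATA3. In T-bet + Plum it was at 487 and 368 TPM and in T-bet + GATA3 at 325 and 381 TPM. *Jak2* was thus higher with FLAG-T-bet and went the opposite way to *Ifngr2*. Both coding transcripts were used, and the longer one, ENSMUST00000065796.9, held 71.5% to 94.4% of the counts without FLAG-T-bet and 80.8% to 92.9% with it.

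*Jak2* rose by 1.20 on the log2 scale in T-bet + Plum against GFP + Plum (SE 0.17, edgeR adjusted p = 0.00554) and by 1.34 in T-bet + GATA3 against GFP + GATA3 (SE 0.17, edgeR adjusted p = 0.00362). The averaged effect was 1.27 (SE 0.12, edgeR adjusted p = 0.000347). In T-bet + GATA3 it was 1.00 above GFP + Plum (SE 0.16, edgeR adjusted p = 0.0128), and this adjusted p was 0.0599 without replicate 2 of GFP + Plum and 0.0536 without replicate 1 of T-bet + GATA3. HA-GATA3 alone gave -0.34 (95% interval from -0.71 to 0.04, edgeR adjusted p = 1). The *Jak1* to *Jak2* ratio by TPM was 0.222 and 0.357 in GFP + Plum, 0.309 and 0.451 in GFP + GATA3, 0.0954 and 0.171 in T-bet + Plum, and 0.142 and 0.149 in T-bet + GATA3. The difference in log2 ratio, with minus without FLAG-T-bet, was -1.25 (exact two-sided permutation test, p = 0.0286, adjusted 0.0286), with -1.14 within the Plum lines and -1.36 within the GATA3 lines. Since *Jak1* was flat, this difference restates the rise of *Jak2* and is no separate support for it. With replicate 1 of T-bet + Plum or of T-bet + GATA3 left out, the exact p was 0.0571.

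All 5 genes passed the filter on low counts, *Ifng* only through the libraries with FLAG-T-bet and *Ifngr2* only through those without it. Genes that enter in this way could hardly fail to differ, so the number of the 5 that passed is read as no more than a description. *Ifng*, *Ifngr2* and *Jak2* passed the test in T-bet + Plum against GFP + Plum, in which 6.2% of the 14791 genes tested were called. The 3 genes also passed in T-bet + GATA3 against GFP + GATA3, with 5.77% of all genes called, in T-bet + GATA3 against GFP + Plum, with 4.87%, and in the averaged T-bet effect, with 15.2%. These comparisons share libraries. None of the 5 genes passed for HA-GATA3 alone, where 0.0203% of genes were called, nor in T-bet + GATA3 against T-bet + Plum, where 0.0338% were called. For the interaction, 0% of genes were called by edgeR, while 381 genes had an unadjusted p under 0.05 and DESeq2 called 15.

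**Figure D3:**
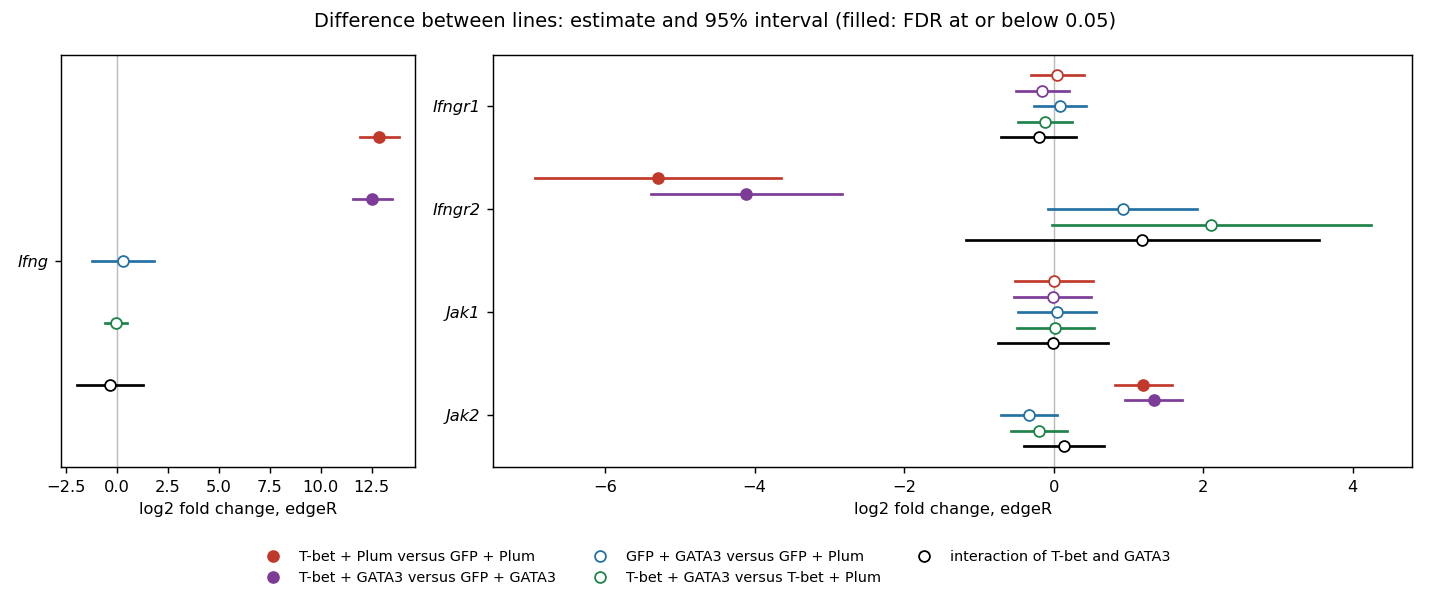
Estimated log2 fold change (point) and 95% interval (line) of each gene in 4 comparisons and the interaction, with filled points at an edgeR FDR of at most 0.05; *Ifng* has an axis of its own. *Ifng* and *Jak2* are filled on the right of 0 and *Ifngr2* on the left in both comparisons of lines with and without FLAG-T-bet, and no point of the GATA3 comparisons or the interaction is filled.

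Of 12 listed genes of JAK-STAT signalling, which include kinases and factors of other cytokine receptors, 11 were tested, and in the averaged T-bet effect 6 rose, none fell and 5 did not pass, with a median of 0.70 on the log2 scale against 0.02 over all genes, of which 8.55% were called higher and 6.61% lower. *Irf1*, a transcription factor gene that IFN-gamma induces early, rose by 1.33 (SE 0.11, edgeR adjusted p = 0.000238). *Ptpn11*, a phosphatase, rose by 1.10, *Tyk2* and *Jak3*, the other kinases of the family, by 1.01 and 0.70, and *Irf9* and *Stat2*, factors that act downstream of type I interferon, by 0.99 and 0.62. The inhibitor *Socs1* stood at 1.10 but did not pass (SE 0.33, edgeR adjusted p = 0.0596), and *Socs3* had no counts. The remaining negative regulators *Ptpn2*, *Ptpn6*, *Pias1* and *Usp18* lay between -0.19 and 0.36.

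Of 24 listed IFN-gamma target genes, 21 were tested, and 15 rose, 1 fell and 5 did not pass, with a median of 2.27. Over all genes in this averaged T-bet effect, 8.55% were called higher and 6.61% lower, and the median was 0.02. The GTPase gene *Iigp1* had 117 and 335 counts in T-bet + Plum and 218 and 556 in T-bet + GATA3, but 0 to 3 in the other libraries, a ratio of 217 with a 95% counting interval of 105 to 541. *Gbp2*, a guanylate-binding protein, rose by 5.46 (SE 0.38, edgeR adjusted p = 9.32e-05), from 0.433 to 2.16 CPM without FLAG-T-bet to 20.9 to 61.0 CPM with it. *Tgtp1* had 33 to 149 counts with FLAG-T-bet and 0 in every library without, which is at least 130-fold higher against a floor of 3 counts over those 4 libraries. *Tgtp2* gave a ratio of 173 with a counting interval of 47.4 to 1434, on 279 against 2 counts. *Tgtp1* and *Tgtp2* are near-identical neighbours, and how their reads were divided is uncertain. The 1 target that fell was *Cd274*, the gene of the inhibitory ligand PD-L1, by 0.60 (SE 0.11, edgeR adjusted p = 0.00785) in the averaged effect. It was at 142.4 and 122.9 CPM in T-bet + Plum and at 239.6 and 181.5 CPM in T-bet + GATA3, against 248.8 to 257.0 CPM in the 4 libraries without FLAG-T-bet. It passed in T-bet + Plum against GFP + Plum at -0.92 (SE 0.15, edgeR adjusted p = 0.0123) and did not pass in T-bet + GATA3 against GFP + GATA3 at -0.28 (SE 0.15, edgeR adjusted p = 0.361). The difference between those effects, 0.64 (SE 0.21), did not pass either (edgeR adjusted p = 0.9999). The target list also holds genes that type I interferon induces. None of 8 other listed interferon genes passed the filter, with at most 5 counts in a library. Which interferon, if any, the targets responded to was not tested. The count of rising targets was 7 under a filter of 10 or more counts per library. That filter removes genes near 0 in the controls, so fewer than 21 targets were tested there. Of the 21 tested, 7 passed the filter on low counts through the FLAG-T-bet libraries alone and so could hardly fail to differ. *Iigp1*, *Gbp2*, *Tgtp1* and *Tgtp2* are among these 7, so the values given for them are a description only.

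**Figure D4:**
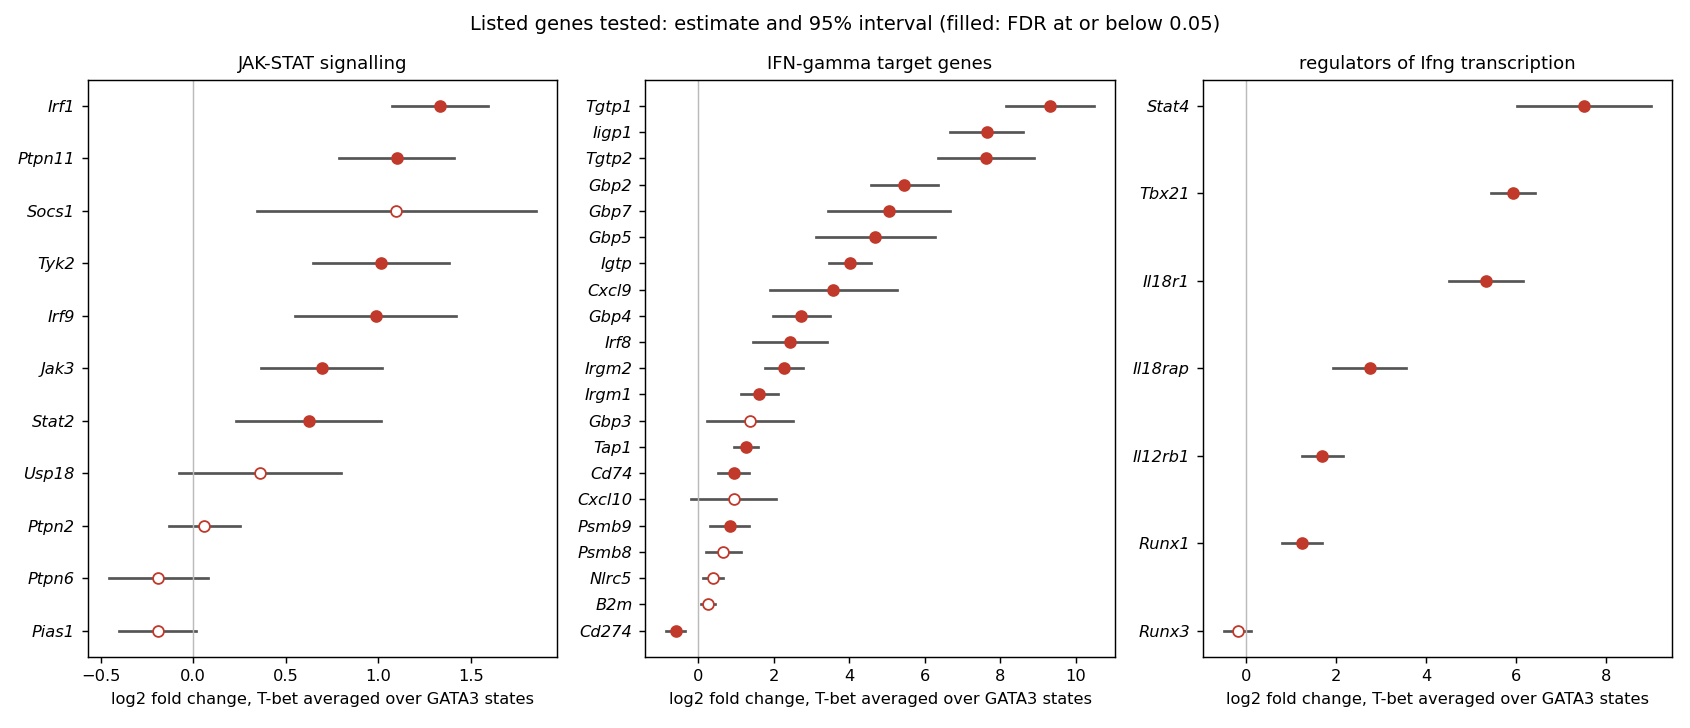
Averaged T-bet effect (log2 fold change, point) and 95% interval (line) for the tested genes of 3 lists, with filled points at an edgeR FDR of at most 0.05. Of the signalling genes 6 are filled, all on the right of 0, and of the target genes 15 are filled on the right and *Cd274* on the left; *Tgtp1*, at 0 counts without FLAG-T-bet, has a fitted value that depends on the prior count.

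Other chains of the receptor family were set beside *Ifngr2*. Of 9 other class II cytokine receptor genes, 4 were tested and none passed in any of the 7 comparisons. *Ifnar1* and *Ifnar2*, the type I interferon receptor, stood at -0.10 (SE 0.11) and -0.22 (SE 0.098) in the averaged T-bet effect, *Il10rb*, a chain of the IL-10 and IL-22 receptors, at -0.03 (SE 0.19) and *Il20rb* at -0.23 (SE 0.24). The difference between these genes and *Ifngr2* was not tested. *Ifnar2*, *Il10rb* and *Ifnar1* lie in a row upstream of *Ifngr2* on chromosome 16, with starts 174.3, 140.9 and 61.8 kb away. Windows of 250 kb on either side of each gene were read after values had been seen. Of 13 tested genes around *Ifngr2*, 2 fell, against 6.61% of all genes, among them *Itsn1* by 1.14 (SE 0.18, edgeR adjusted p = 0.00411), and none rose. Around *Jak1* 3 genes were tested, of which *Dnajc6* fell by 1.09 (SE 0.14), and the 1 gene tested around *Ifngr1* did not pass. Whether these counts differ from the share over all genes was not tested.

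Around *Ifng* another cytokine gene went the other way. *Il22*, which encodes a cytokine that acts on epithelia and starts 236.1 kb upstream, had 12 and 14 counts in GFP + Plum, 17 and 56 in GFP + GATA3, and 0 in all 4 libraries with FLAG-T-bet. That is at least 26.6-fold lower, against a floor of 3 counts over those 4 libraries (edgeR adjusted p = 0.00353). *Il22* passed the filter on low counts only through the libraries without FLAG-T-bet, so it could hardly fail to differ. Its near-identical copy *Iltifb* had at most 6 counts, and how reads were divided between the copies is uncertain. Of 7 listed *Ifng* neighbours 5 were tested, and *Dyrk2*, a kinase gene, rose by 0.67 (SE 0.12, edgeR adjusted p = 0.00931), while *Mdm1*, *Rap1b* and *Nup107* lay between -0.27 and -0.04. Over all genes 8.55% were called higher and 6.61% lower. Apart from *Il22*, these tested neighbours lie farther than 250 kb from *Ifng*. Around *Jak2*, 10 genes were tested within 250 kb, of which *Rcl1* rose by 0.44, and *Cd274* and *Ric1* fell, by 0.60 and 0.48, where 15.2% of all genes were called. *Pdcd1lg2*, which encodes PD-L2 and starts 159.1 kb downstream of *Jak2*, stood at 0.04 (SE 0.35).

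**Figure D5:**
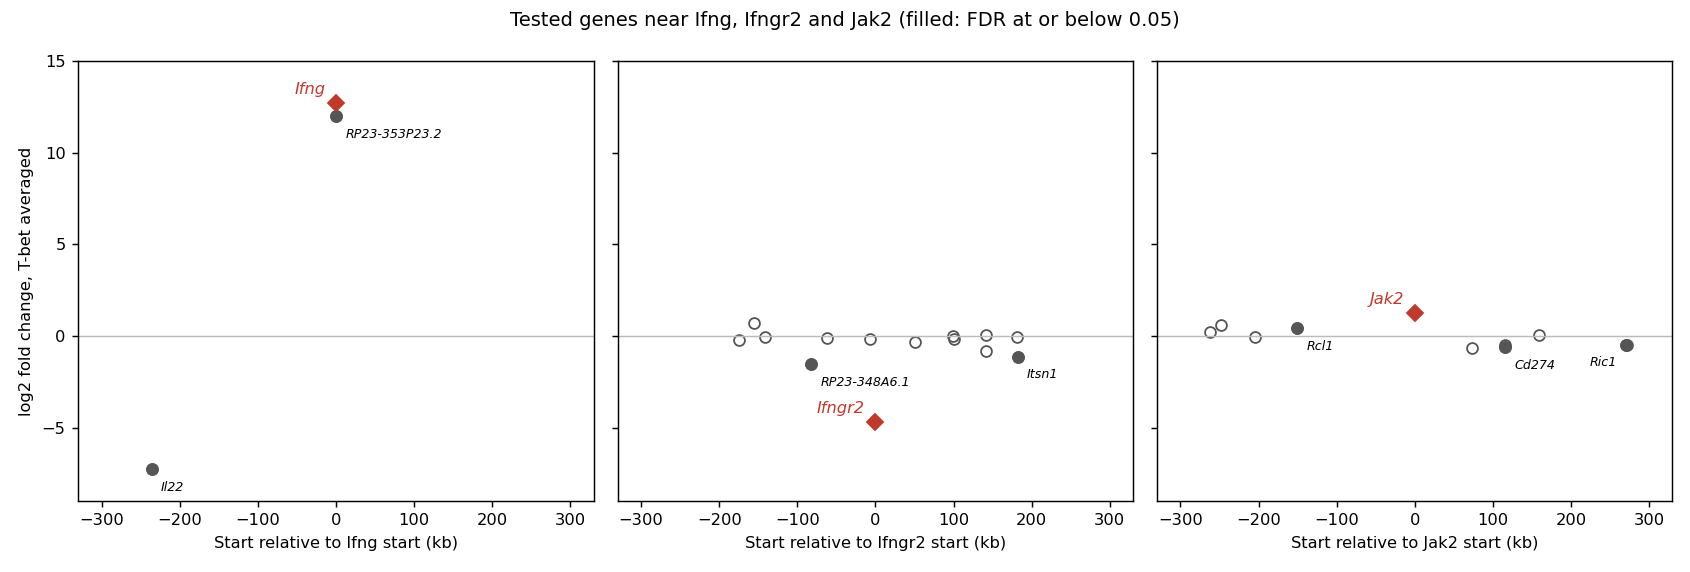
Averaged T-bet effect (log2 fold change) of each tested gene within 250 kb of *Ifng*, *Ifngr2* and *Jak2*, plotted by the distance between gene starts in kb, with filled circles at an edgeR FDR of at most 0.05 and the central gene as a diamond. *Il22* lies below 0 and *Ifng* above, and the fitted values of *Il22* and RP23-353P23.2 depend on the prior count because each has a group at 0.

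Of 10 listed regulators of *Ifng* transcription 7 were tested and 6 rose, against 8.55% of all genes, with a median of 2.74. The 6 include *Tbx21*, and *Stat4*, which passed the filter on low counts through the FLAG-T-bet libraries alone. *Tbx21* itself rose by 5.92 (SE 0.21, edgeR adjusted p = 4.53e-06), which is the construct. *Stat4*, which carries the IL-12 signal to *Ifng*, had 22 to 74 counts with FLAG-T-bet and 1 count in all without, a ratio of 214 with a 95% counting interval of 38.0 to 8512. *Il18r1* and *Il18rap*, the chains of the IL-18 receptor, rose by 5.32 (SE 0.36) and 2.74 (SE 0.35). *Il12rb1* and *Runx1* also passed, *Runx3* stood at -0.19, and *Eomes* and *Hlx*, other activators of *Ifng*, had no counts.

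The likeness of other genes to each of the 5 was measured as the root mean square difference of standardised log2 CPM over the 8 libraries, where 0 is the same pattern and the median over 11061 protein-coding genes was 1.32 for *Ifng*. Closest to *Ifng* were *Pfpl* at 0.0770, *Nfat5* at 0.0886 and *Cd84* at 0.0933. They share the step between libraries but not its size. *Pfpl* had 1822 counts in the 4 libraries with FLAG-T-bet and 1 in the others, whereas *Nfat5*, a transcription factor gene, had means of 532 and 534 CPM without FLAG-T-bet and 985 and 961 CPM with it. Closest to *Ifngr2* were *Wasl* at 0.137, AC121847.1 and *Crk*, both at 0.142, and closest to *Jak2* were *Ifi203*, *Ccl9* and RP23-312H15.5, at 0.135, 0.135 and 0.136. *Ccl9*, a chemokine gene, was at 216 CPM in T-bet + Plum and 90.0 CPM in T-bet + GATA3. Without FLAG-T-bet its means were 6.73 and 2.41 CPM. For the flat genes the closest were farther away, at 0.261 for *Ifngr1* (*Clk4*, then *Btbd1* and *Acbd4*) and 0.229 for *Jak1* (*Ctdp1*, then *Mta2* and *Nt5c2*).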

How the data were processed

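Paired-end RNA-seq libraries from 4 EL4 lines, 2 each, were analysed. The submitters' processing notes name FastQC, Trim Galore and kallisto with mm10. The authors deposited kallisto estimated counts and TPM for 136535 transcripts per library, without pooling; estimated counts are not normalized, and the deposited TPM are scaled for length and total. Here both were summed per gene by the gene identifier held in each transcript identifier, and counts were rounded. The named genes were then found by their symbols. Kallisto divides reads between overlapping transcripts by estimation, so low counts and transcript shares are uncertain.

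Counts were tested with edgeR 4.0.16 in R 4.3.3 (TMM, filterByExpr, quasi-likelihood, Benjamini-Hochberg adjustment over 14791 genes, 4 residual degrees of freedom), in one fit of the 8 libraries with the line as group. The threshold for a call was an FDR of 0.05 or less. SE is the size of the log2 fold change divided by the square root of F. CPM used TMM-scaled library sizes. Ratios of TPM were compared by exact permutation (SciPy 1.17.1). Counting intervals are exact, at 95%, and cover counting error only, as do floors of 3 counts. In counts simulated for the averaged T-bet effect over 14791 genes, edgeR found 79.5% of genes changed by 1 on the log2 scale and 100% of those changed by 2, and 6.35% of its calls were false. With DESeq2, 16.8% of calls were false. The 200 changed genes were drawn from genes with higher counts, so these shares do not cover genes with few counts. The data gave 2242 calls in this comparison, and the simulation held no replicate effect. The shares of false calls therefore need not carry over to the data.

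The 5 genes and all lists were chosen with earlier results of these data known. All 5 genes, their transcripts and *Tbx21* were named. From each list at most 4 called genes with the largest averaged T-bet effect were named, with every called signalling gene, and 3 protein-coding genes per member for likeness. Other genes were named after their values were seen, and 1 gene of the signalling list is not reported here. Positions and transcripts are those of Gencode M21, and promoter windows those of RefSeq (GRCm38.p6). The replicate numbers were not taken as pairs, because their correlations were not all above 0.1. Alternatives were DESeq2 1.42.0, other scalings and filters, length offsets, a replicate block, the libraries of 1 comparison, and each library left out.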

Additional observations from a re-analysis of the deposited data

How the results depend on the processing

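The averaged T-bet effects of *Ifng*, *Ifngr2* and *Jak2* kept their direction and side of the threshold under each alternative that gave a value. *Ifng* and *Ifngr2* gave none where at least 10 counts were required in every library. With protein-coding transcripts only, the ratio of *Ifngr1* to *Ifngr2* gave no value, because the coding transcript of *Ifngr2* was at 0 in 1 library.

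The replicate numbers did not pair the libraries by the rule used, since the deviations of same-numbered libraries correlated between -0.0455 and 0.302 over 6 pairs of lines. The mean correlation was 0.142, and a shift shared by libraries of the same number was not tested. With the replicate block the genes called were against GFP + Plum 1440 with T-bet, 6 with GATA3 and 1110 with both, and 1379 for T-bet + GATA3 against GFP + GATA3, in place of 917, 3, 721 and 854 without it. The block left the log2 ratios at 4.86 and -1.25 with an exact p of 0.0556, the smallest it allows, and gave *Jak1* 0.0051 in T-bet + Plum against GFP + Plum.

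Without a filter on low counts the genes called were against GFP + Plum 1964 with T-bet, 293 with GATA3 and 1698 with both, 1936 for T-bet + GATA3 against GFP + GATA3, 228 for T-bet + GATA3 against T-bet + Plum, and 145 for the interaction. DESeq2 called 57 for GFP + GATA3 against GFP + Plum, 38 for T-bet + GATA3 against T-bet + Plum and 15 for the interaction. On the libraries of the comparison alone 0, 294 and 3 were called for GFP + GATA3 and T-bet + GATA3 against GFP + Plum, and for T-bet + GATA3 against T-bet + Plum. The cause of these differences was not tested.

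Signs turned in values near 0. *Jak1* was at -0.047 (T-bet + GATA3 against GFP + Plum) and -0.0146 (against T-bet + Plum) with library size only, at 0.0233 in the interaction without a filter, and at 0.0069 in T-bet + Plum against GFP + Plum with at least 10 counts. With length offsets it was at 0.0444 in T-bet + Plum against GFP + Plum, -0.0145 in T-bet + GATA3 against T-bet + Plum and 0.0131 in the averaged effect, and *Ifngr1* was at -0.0226 in GFP + GATA3 against GFP + Plum.

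With each library left out in turn, the genes called ranged from 262 to 975 in T-bet + Plum against GFP + Plum, 0 to 5 in GFP + GATA3 against GFP + Plum, 384 to 575 in T-bet + GATA3 against GFP + Plum, 234 to 1055 in T-bet + GATA3 against GFP + GATA3, 1 to 9 in T-bet + GATA3 against T-bet + Plum, 1239 to 2403 in the averaged T-bet effect and 0 to 3 in the interaction. The lowest counts for the averaged T-bet effect and for T-bet + GATA3 against GFP + GATA3 came without replicate 2 of GFP + GATA3, and that for T-bet + Plum against GFP + Plum without replicate 2 of T-bet + Plum. Differences that passed no test turned sign. *Ifng* ran from -0.38 to 1.48 in GFP + GATA3 against GFP + Plum, from -0.28 to 0.22 in T-bet + GATA3 against T-bet + Plum and from -1.54 to 0.32 in the interaction. *Ifngr1* ran from -0.0984 to 0.21 in T-bet + Plum against GFP + Plum, from -0.0632 to 0.25 in GFP + GATA3 against GFP + Plum, from -0.22 to 0.0964 in T-bet + GATA3 against GFP + Plum and from -0.13 to 0.0306 in the averaged T-bet effect. *Jak1* ran from -0.28 to 0.32 in T-bet + Plum against GFP + Plum, from -0.23 to 0.36 in GFP + GATA3 against GFP + Plum, from -0.24 to 0.35 in T-bet + GATA3 against GFP + Plum, from -0.16 to 0.14 in T-bet + GATA3 against GFP + GATA3, from -0.19 to 0.28 in T-bet + GATA3 against T-bet + Plum, from -0.15 to 0.15 in the averaged T-bet effect and from -0.34 to 0.25 in the interaction. *Jak2* ran from -0.37 to 0.0141 in T-bet + GATA3 against T-bet + Plum and from -0.0334 to 0.35 in the interaction. The log2 ratio of *Jak1* to *Jak2* ran from -1.43 to -1.08 and that of *Ifngr1* to *Ifngr2* from 4.37 to 5.44.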
